A study of Rattus norvegicus with 16 samples.

Results

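The 5 genes Drd1, Drd2, Adora2a, Penk and Tac1 are known as genes of the projection neurons of the striatum, and their counts were followed through 16 RNA libraries labelled as nucleus basalis of Meynert of the rat. They were taken by identifier and chromosome under a rule that uses no measured value, but with earlier results of these data known. All 5 of the 32883 genes in the count files lay on the chromosome named for them. All 5 passed the filter on low counts, which left 14241 genes for testing. Stress moved none of the 5 past the test in either sex. Their levels nevertheless differed up to 3.12-fold between libraries, and the genes rose and fell together from library to library.

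Every library, control and stressed, came from ChAT::Cre rats of the Long Evans strain, aged 70 days or more. In such animals Cre recombinase is driven in cholinergic cells, those making choline acetyltransferase. The groups were stressed females (FS), control females (FC), stressed males (MS) and control males (MC), with 4 libraries each. The series text gives the procedure only as "VS" and states 6 replicates, and no label names an injected agent. No label says that a library is 1 animal, and the spread that p-values rest on here may in part be technical. Replicate numbers follow the accession order and pair no samples. In the stressed females the number in the title differs from that in the file.

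Totals ran from 22.7 to 73.8 M (mega) counts per library. Genes of the mitochondrial genome took 64.2% to 82.5% of them, which left 5.86 to 22.6 M nuclear counts. Libraries FC4, MS1 and MC4 were counted with featureCounts and the other 13 with HTSeq, and 0 pairs of libraries held identical counts. The files give no gene names. Markers of cholinergic neurons, other neurons and glia could therefore not be looked up, and the labelled tissue was not checked against them.

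The striatum is the input station of the basal ganglia. Most of its cells are GABA-releasing projection neurons of a direct and an indirect pathway. Direct pathway neurons make the dopamine D1 receptor (Drd1), which raises cyclic AMP, and the precursor of substance P (Tac1). Indirect pathway neurons make the dopamine D2 receptor (Drd2), which lowers cyclic AMP, an adenosine receptor (Adora2a), which raises it, and the precursor of the enkephalins (Penk). In the rat the cholinergic cells of the nucleus basalis lie in and around the globus pallidus, which borders the striatum. Drd2 is also made by cholinergic interneurons, and Penk and Tac1 by other forebrain neurons, so these transcripts are not unique to the projection neurons.

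On Rnor_6.0 Drd1 (ENSRNOG00000023688) lies on the plus strand of chromosome 17 at 11101306 to 11103541, with 1 exon of 2236 bases. Tac1 (ENSRNOG00000007374) lies on the plus strand of chromosome 4 at 33638709 to 33646819 with 1178 exonic bases. Drd2 (ENSRNOG00000008428) lies on the plus strand of chromosome 8 at 53678777 to 53743642 with 2747 exonic bases. Adora2a (ENSRNOG00000001302) lies on the minus strand of chromosome 20 at 14265252 to 14282873 with 2485 exonic bases. Penk (ENSRNOG00000008943) lies on the minus strand of chromosome 5 at 17056419 to 17061837 with 1702 exonic bases. The genes thus sit on 5 chromosomes, and 0 of the 5 share exonic bases with another annotated gene. The span of Penk holds 1 other gene between its exons.

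RefSeq promoter windows on the build GRCr8 were at hand for Drd1, Drd2 and Tac1. To give a view of what lies upstream, 2 stretches are shown, from Drd2 and Tac1. The 250 bases before the start were searched on both strands for the cyclic AMP response element (CRE) TGACGTCA, its half-site TGACG, the CRE-like site TGCGTCA, the GC box GGGCGG and the TATA box TATAAA. Tac1 held 1 CRE-like site, 208 bases before the start, as did 1.66% of 33469 windows. The half-site found in Tac1 overlaps it. Drd2 held 2 GC boxes, 98 and 61 bases before the start, and 30.5% of the windows held at least 1. The Drd1 window held 0 of these motifs and lies inside the span RefSeq gives the gene, so it is not printed. Capitals mark the CRE-like site in Tac1 (plus strand, chr4:36645364-36645393) and the GC boxes in Drd2 (plus strand, chr8:58605153-58605402). A match is a description of letters only.
Tac1: ttccctaaaatTGCGTCAtttcgaacccaa
Drd2: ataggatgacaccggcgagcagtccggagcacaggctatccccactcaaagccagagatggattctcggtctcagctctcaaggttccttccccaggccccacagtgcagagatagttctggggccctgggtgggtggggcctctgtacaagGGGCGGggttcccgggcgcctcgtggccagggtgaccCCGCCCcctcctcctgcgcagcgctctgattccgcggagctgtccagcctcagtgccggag

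All 5 transcripts were well counted. The lowest count of a gene in a library was 331, for Drd1, and the highest 9402, for Penk. To compare genes with each other, levels are given per length, as normalised counts per kilobase of exon and M counts (RPKM). Penk stood highest at 90.3 ± 29 RPKM (SD, n = 16), followed by Tac1 at 32.1 ± 8.1, Drd2 at 22.6 ± 4.8, Drd1 at 6.82 ± 2.3 and Adora2a at 5.45 ± 1.1 RPKM. Penk lay above 99.3% of the genes tested on this scale, and Adora2a above 74.4%. Penk exceeded Tac1 in 16 of 16 libraries, and Drd2 exceeded Drd1 in 16 of 16. Tac1 exceeded Drd2 in 15 of 16 libraries. Drd1 and Adora2a were the closest neighbours in this order, with Drd1 higher in 12 of 16 libraries and overlapping ranges of 3.55 to 11.0 and 2.97 to 7.04 RPKM.

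Levels within a gene are given in TMM-normalised counts per M counts (CPM), where TMM is edgeR's scaling of library sizes. Drd1, the D1 receptor of the direct pathway, had 10.6, 17.5, 12.6 and 14.3 CPM in stressed females (replicates 1 to 4) and 13.5, 21.8, 10.6 and 7.93 CPM in control females. In males it had 12.5, 17.0, 18.6 and 13.7 CPM under stress and 24.7, 24.6, 11.3 and 12.8 CPM in controls. Libraries MC1, MC2 and FC2 stood highest and FC4 lowest, and stressed and control libraries overlapped in both sexes. Tac1, the substance P precursor, had 29.5, 38.5, 38 and 40.4 CPM in stressed and 36.4, 59.2, 22.3 and 29.9 CPM in control females. In males Tac1 had 29.6, 38.1, 38.8 and 34.4 CPM under stress and 46.4, 55.7, 30.7 and 36.1 CPM in controls. FC2, MC2 and MC1 again stood highest, and the lowest library was FC3.

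Drd2, the D2 receptor of the indirect pathway, had 51.5, 67.6, 46.8 and 62.6 CPM in stressed and 71.0, 71.4, 63.8 and 35.7 CPM in control females. In males Drd2 had 54.3, 68.3, 81.3 and 57.0 CPM under stress and 79.2, 78.8, 47.2 and 55.9 CPM in controls. Here MS3 stood highest, close to MC1 and MC2, and FC4 was lowest. Adora2a, the adenosine receptor of the same neurons, had 10.5, 14.5, 10.1 and 12.1 CPM in stressed and 13.5, 14.3, 13.1 and 7.39 CPM in control females. In males Adora2a had 16.2, 14.9, 15 and 16.4 CPM under stress and 17.5, 17.4, 12.9 and 10.8 CPM in controls. The stressed males lay close together, and all 4 were above all 4 stressed females. Penk, the enkephalin precursor, had 116, 153, 95.6 and 128 CPM in stressed and 120, 242, 129 and 87.2 CPM in control females. In males Penk had 126, 158, 210 and 140 CPM under stress and 266, 178, 147 and 163 CPM in controls. MC1 and FC2 stood highest and FC4 lowest, and the groups overlapped within each sex.

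**Figure D1:**
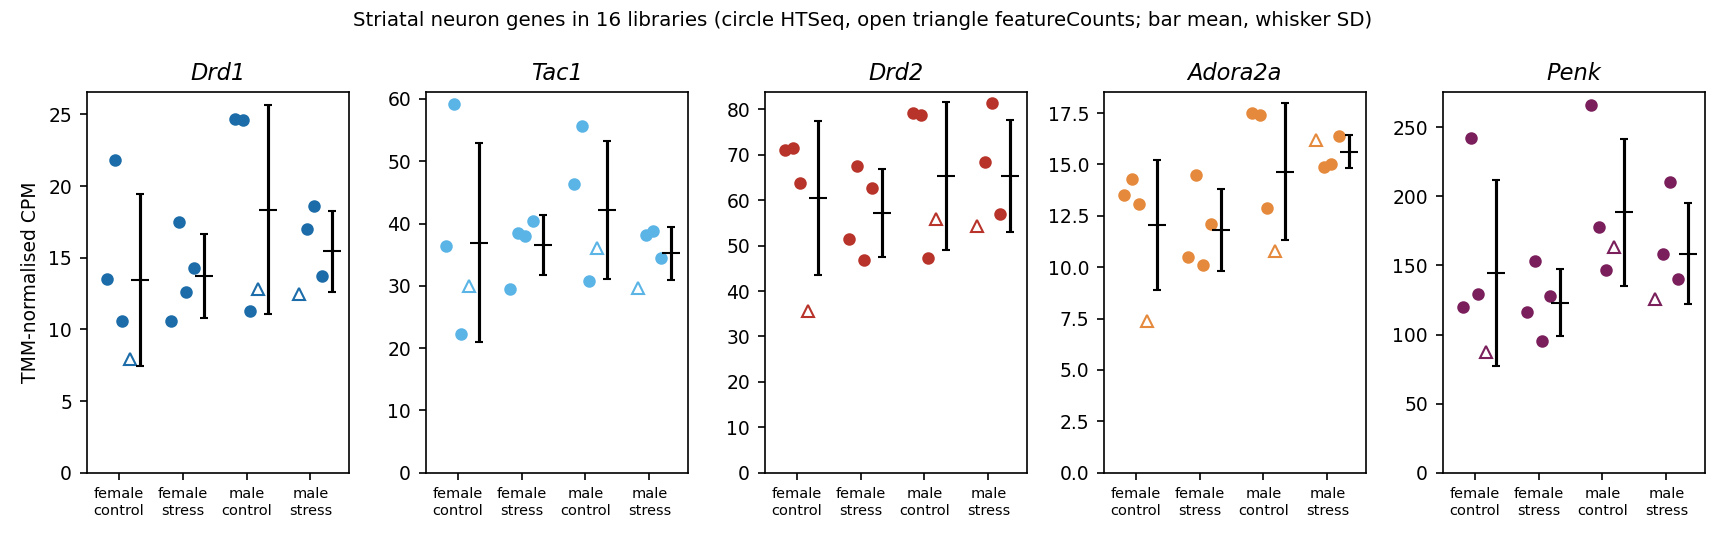
TMM-normalised CPM (y axis, from 0) of each gene in the 4 groups (x axis); each point is a library, filled circles counted with HTSeq and open triangles with featureCounts, the bar is the group mean and the whisker the SD of 4 libraries. Stressed and control points overlap in each sex for all 5 genes, and the open triangle of FC4 is the lowest point for Drd1, Drd2, Adora2a and Penk.

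Stress did not move the genes past the test in either sex. By edgeR's quasi-likelihood test with Benjamini-Hochberg adjustment over all genes tested, 0 of the 5 were called in females, where 0.0632% of all genes were called. In males 0 of 5 were called, against 0.119% of all genes, and 0 of 5 for the average over the sexes, against 0.337%. Stressed and control libraries failed to overlap for 0 of 5 genes in females and 0 of 5 in males, against 3.31% and 5.27% of all genes tested. In these comparisons 0 of 5 had an unadjusted p under 0.05, by edgeR, DESeq2 or limma voom on the filtered genes. With no filter on low counts, edgeR gave 2 of 5 in males (Penk and Tac1) and 1 of 5 on average (Penk), with 0 of 5 past the adjustment. Of the 14241 filtered genes, 923 in females, 1097 in males and 1448 on average had an unadjusted p under 0.05 by edgeR. The number of all genes under that cut with no filter is not given here. With so few of all genes called, a count of 0 called among 5 is near the background. The intervals of the differences are therefore the more informative values.

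In females the log2 fold change of stress against control was 0.05 for Drd1 (95% interval -0.62 to 0.73) and -0.01 for Tac1 (-0.51 to 0.49). It was -0.08 for Drd2 (-0.52 to 0.37), -0.02 for Adora2a (-0.39 to 0.36) and -0.23 for Penk (-0.84 to 0.38). The median of the 5 was -0.02, and that of all genes tested 0.01. The SD of Drd1 was 6.02 CPM in control and 2.93 CPM in stressed females, and FC4 and FC2 marked the ends of the controls. Without the 3 featureCounts libraries, FC4 among them, Drd2 was at -0.27, Adora2a at -0.21 and Penk at -0.41. Their adjusted p was still 0.909, 0.925 and 0.925 by edgeR. In the same setting Drd1 was at -0.15, so that its sign turned, and Tac1 was at -0.10 (adjusted p of 0.984 and 0.986 by edgeR). Without FC2, Drd1 was at 0.38, Tac1 at 0.30 and Penk at 0.13, so that the signs of Tac1 and Penk turned (adjusted p of 0.97, 0.969 and 0.989 by edgeR).

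In males the log2 fold change was -0.24 for Drd1 (95% interval -0.91 to 0.42), -0.26 for Tac1 (-0.76 to 0.24) and -0.25 for Penk (-0.86 to 0.36). Drd2 was at 0.00 (-0.44 to 0.44) and Adora2a at 0.10 (-0.27 to 0.47). Adjusted p ran from 0.854 to 1 by edgeR. The median of the 5 was -0.24, against 0.00 for all genes tested. MC1 and MC2 were the highest male controls for all 5 genes. For Drd1, MC3 lay below all stressed males and MC4 among them. Without MC1, Drd1 was at -0.07 and Penk at -0.04, and without MC2, Drd1 was at -0.07 and Tac1 at -0.10. Without MC3, Drd1 was at -0.43 and Tac1 at -0.39. Without the 3 featureCounts libraries Adora2a was at -0.05, so that its sign turned (adjusted p = 0.988 by edgeR). On average over the sexes the interval ran from 0.78-fold to 1.21-fold for Drd2 and from 0.86-fold to 1.23-fold for Adora2a. For Penk it ran from 0.63-fold to 1.14-fold, for Tac1 from 0.71-fold to 1.17-fold and for Drd1 from 0.67-fold to 1.30-fold. The stress effect differed between the sexes for 0 of the 5 genes (adjusted p = 1.0 for each by edgeR), where 0% of all genes were called. At an unadjusted p under 0.05 there were 0 of 5, and 1 of 5 without FC2. With all 16 libraries, 571 of 14241 genes were under that cut by edgeR.

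Females and males were compared within each condition. In controls all 5 genes had lower means in females, and 0 of 5 were called by edgeR, against 0.112% of all genes. The groups overlapped for all 5, while 3.35% of all genes did not overlap. The log2 fold change of females against males was -0.46 for Drd1 (95% interval -1.13 to 0.21), -0.39 for Penk (-1.0 to 0.23) and -0.29 for Adora2a (-0.66 to 0.08). Tac1 was at -0.19 (-0.70 to 0.31) and Drd2 at -0.11 (-0.56 to 0.33). These values depended on single libraries. Without FC4, Drd2 was at 0.08, Adora2a at -0.09 and Drd1 at -0.26, and without the 3 featureCounts libraries Drd2 was at 0.01. Without FC2, Drd1 was at -0.79, Penk at -0.75 and Tac1 at -0.51, and 3 of 5 then had an unadjusted p under 0.05, with 0 of 5 past the adjustment by edgeR. With all 16 libraries and no filter on low counts, 3 of 5 in controls and 2 of 5 in stressed rats were under that cut. Stressed rats fitted alone gave 2 of 5. Again 0 of 5 passed the adjustment. In the filtered fit of all 16 libraries, 882 of 14241 genes were under that cut in controls and 809 in stressed rats. The number of all genes under it in the other settings is not given here. In stressed rats 0 of 5 were called, against 0.0913% of all genes. Adora2a differed most, at 11.8 ± 2.0 CPM in females and 15.6 ± 0.80 CPM in males (SD, n = 4), a log2 fold change of -0.40 (SE 0.18). Its unadjusted p of 0.0337 did not pass the adjustment over all genes (adjusted p = 0.87 by edgeR). In this comparison 0 of 5 genes had an unadjusted p under 0.05 by edgeR when FS1, FS3, FS4, MS1 or MS4 was left out. When FS2, MS2 or MS3 was left out, 1 of 5 did. Adora2a was the only 1 of 5 genes whose groups did not overlap in this comparison, and 3.76% of all genes tested did not overlap there. Penk was at -0.37, Drd2 at -0.19, Drd1 at -0.17 and Tac1 at 0.06. The sex comparisons share libraries with the stress comparisons.

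**Figure D2:**
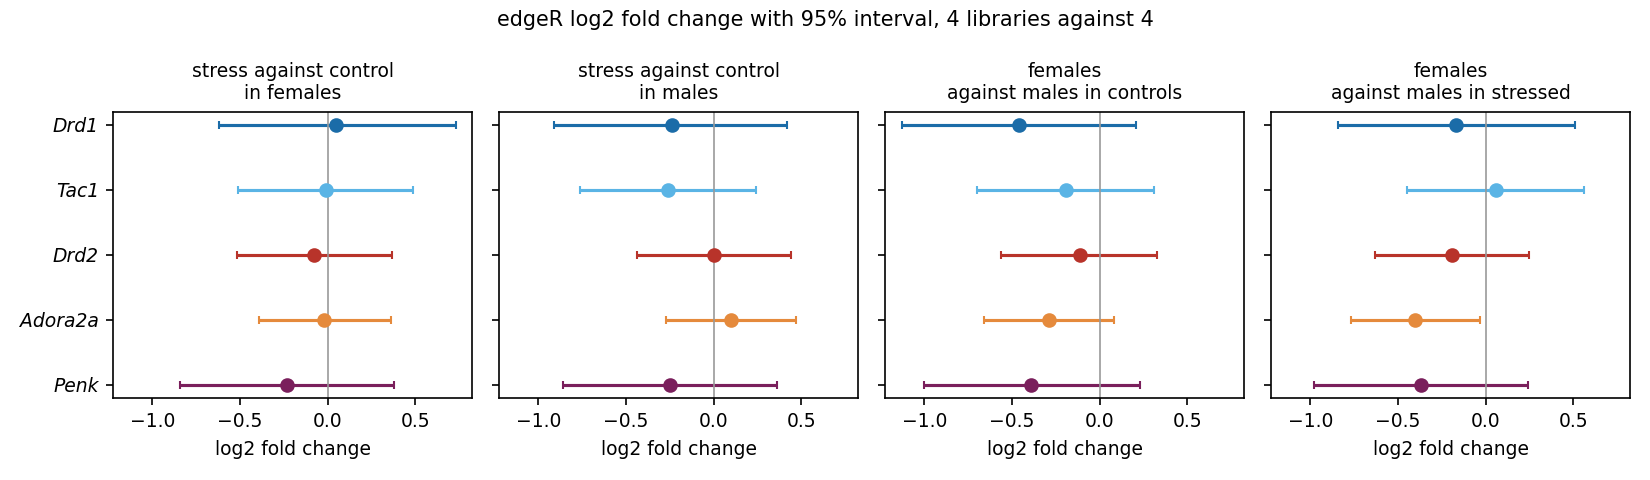
Log2 fold change (x axis) of each gene (y axis) with its 95% interval from edgeR, for stress against control in each sex and for females against males in each condition, 4 libraries against 4. All intervals reach across 0 except that of Adora2a in stressed females against stressed males, from -0.77 to -0.03, which did not pass the adjustment over all genes.

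The spread between libraries of a single group was wider than the trend for all 5 genes, and by most for Drd1 and Penk. edgeR expresses it as a biological coefficient of variation (BCV), the spread left after counting error, and fits a trend of BCV against level over all genes. Drd1 had a BCV of 30.1%, against 14.1% on the trend at its level. Penk had 27.7% against 12.9%, Tac1 23.3% against 13.0% and Drd2 20.8% against 12.9%. Adora2a, at 17.7% against 14.4%, was the least spread of the 5. Counting error alone gives at most 5.50% for Drd1, from its lowest count, and 1.74% for Penk.

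The ratio of BCV to trend was 2.14 for Drd1 and for Penk, above 99.4% of the genes tested. It was 1.80 for Tac1 (above 99.0%), 1.62 for Drd2 (above 98.2%) and 1.23 for Adora2a (above 90.5%), with a median of 0.95 over all genes. Within the 13 HTSeq libraries Drd1, Penk and Tac1 stayed above 99.5%, 99.6% and 99.5% of genes, and Drd2 above 94.2%. There the ratio of Adora2a was 0.965, above 52.7% of genes, and without FC4 alone it was 1.05, above 72.7%. When single libraries were left out, the ratio of Penk was lowest without FC2 at 1.53 (above 97.5%) and that of Tac1 without FC2 at 1.30 (above 93.4%).

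**Figure D3:**
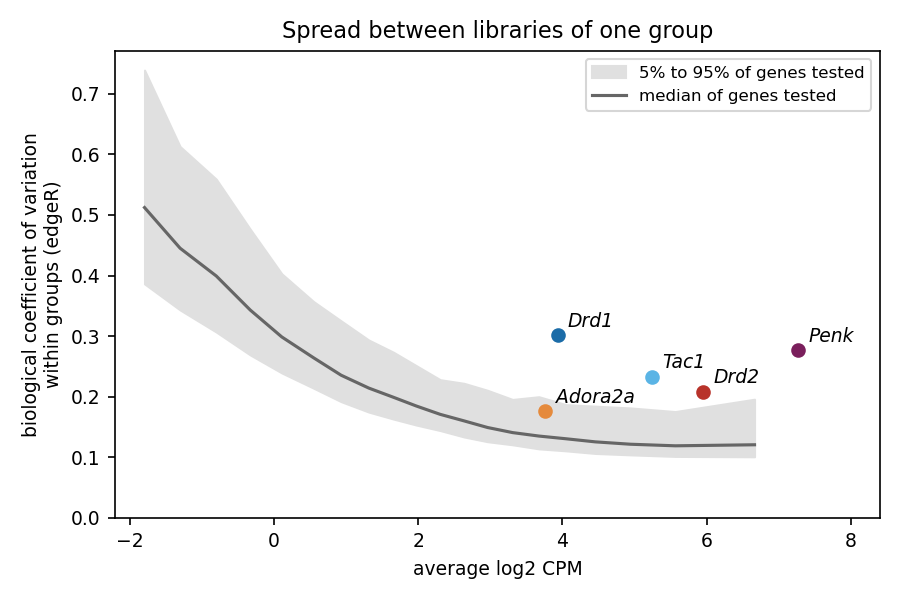
Biological coefficient of variation within groups (y axis, from 0) against average log2 CPM (x axis); the line is the median and the band the 5% to 95% range of all genes tested in 20 bins of level, and the points are the 5 genes. Drd1, Tac1 and Drd2 lie above the band, and Adora2a lies near its upper edge. Penk lies to the right of where the band ends, higher than the upper edge at that end.

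The 5 genes varied together across libraries. When libraries were ranked for each gene, 6 libraries (FS2, FC2, MS2, MS3, MC1 and MC2) were among the 8 highest for all 5 genes. FS1 and FC4 were among the 8 highest for 0 genes, the other 8 libraries for 1 or 2, and 0 libraries for 3 or 4. By this cut on ranks, high libraries occurred in all 4 groups. As a mean of the 5 deviations from each gene's own average on the log2 scale, the controls MC1, MC2 and FC2 stood at 0.55, 0.48 and 0.47. The stressed libraries MS3, MS2 and FS2 stood lower, at 0.31, 0.15 and 0.14. At the other end FC4 stood at -0.70, FS1 at -0.34 and FS3 at -0.31. In bulk RNA, fewer cells of a type and less RNA per cell cannot be told apart.

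**Figure D4:**
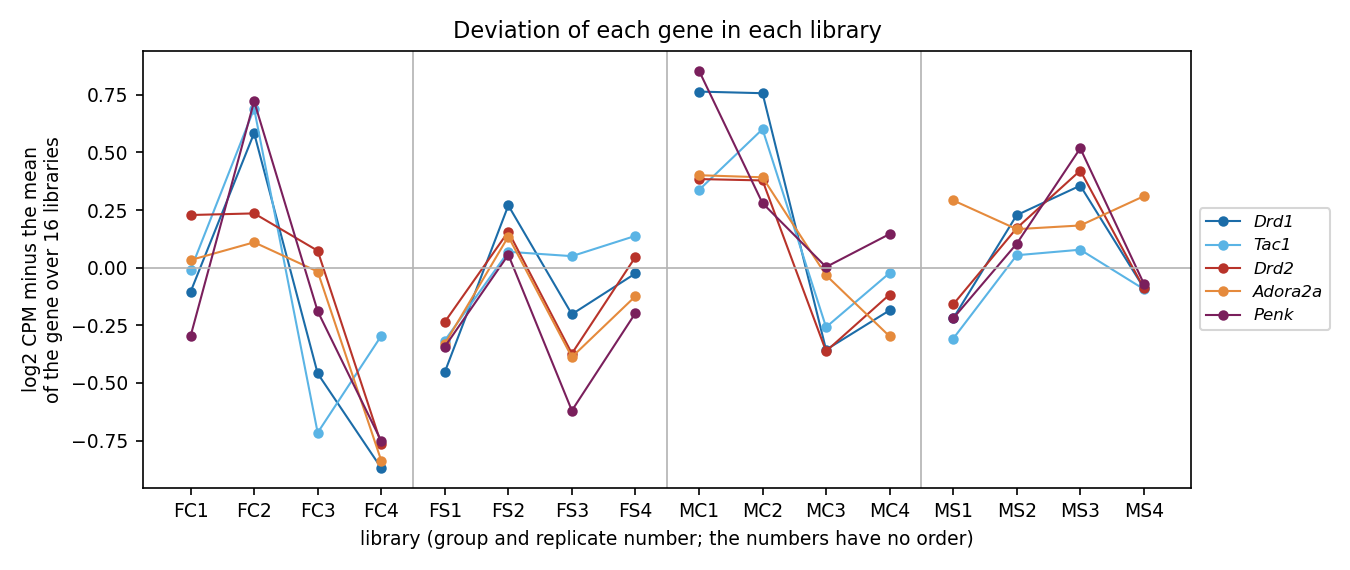
Deviation of log2 CPM from the mean of the gene over 16 libraries (y axis) in each library (x axis, by group); each colour is a gene, lines join libraries of a group only to guide the eye. All 5 genes are above 0 in the 6 libraries FC2, FS2, MC1, MC2, MS2 and MS3 and below 0 in the 2 libraries FC4 and FS1.

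Over the 16 libraries, 9 of the 10 pairs of genes correlated after Benjamini-Hochberg adjustment of permutation p-values over the 10 pairs. The share of pairs among all genes tested that would pass the same cut is not given here. The count therefore does not show that these pairs differ from other pairs of genes. Drd1 and Drd2, which mark different pathways, had a Pearson r of 0.86 (two-sided permutation p = 2e-05, adjusted p = 0.000133) and a Spearman rho of 0.84 (p = 0.00012 by permutation). Drd1 and Tac1, both of the direct pathway, had r of 0.85 (permutation p = 3e-05, adjusted p = 0.000133) and rho of 0.92 (permutation p = 1e-05, the smallest that 100000 permutations can give). Drd2 and Adora2a, both of the indirect pathway, had r of 0.79 (permutation p = 0.00028, adjusted p = 0.0007) and rho of 0.72 (permutation p = 0.00241). Correlation was therefore not limited to genes of 1 pathway.

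The pair that did not pass was Adora2a and Tac1, with r of 0.40 (permutation p = 0.126) and rho of 0.43 (permutation p = 0.0992). Drd2 and Tac1 passed with r of 0.56 (permutation p = 0.0265, adjusted p = 0.0295) and rho of 0.70 (permutation p = 0.00369). Among the remaining 5 pairs r ran from 0.64 for Penk and Tac1 (adjusted permutation p = 0.00941) to 0.85 for Drd1 and Penk (adjusted permutation p = 0.000133). Without the 2 libraries farthest from the median of the first gene, r was 0.83 for Drd1 and Drd2, 0.79 for Drd1 and Tac1, 0.55 for Drd2 and Adora2a and 0.44 for Penk and Tac1. With each gene centred on its group means, 9 of 10 pairs passed again, and r of Drd1 and Drd2 was 0.87. Within the 13 HTSeq libraries 8 of 10 passed. Drd2 and Tac1, at r of 0.52 (adjusted permutation p = 0.0726), did not, and r of Drd1 and Drd2 was 0.79. The 3 featureCounts libraries are too few for a value of their own.

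**Figure D5:**
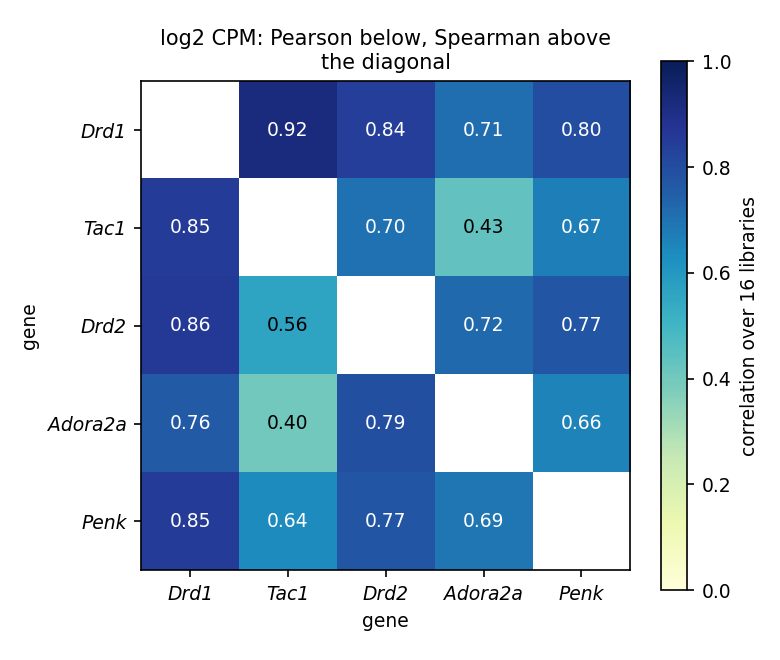
Correlation of log2 CPM over 16 libraries for each pair of genes (both axes), Pearson r below and Spearman rho above the diagonal, with colour from 0 to 1. Drd1 has r of 0.76 to 0.86 with the other 4 genes, and the lowest pair is Adora2a and Tac1 at 0.40.

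Each gene was also set against the mean of the other 4, beside the same measure for all other genes tested, as a description without a test. Drd1 ranked 1 of 14237 genes, with r of 0.97 over 16 libraries and 0.96 over the 13 HTSeq libraries. Drd2 ranked 41 with r of 0.85, Penk 54 with 0.84, Adora2a 191 with 0.74 and Tac1 323 with 0.69, while the median gene had r of -0.02 to -0.01. Of the 14236 genes tested that are not among the 5, 18 had r of at least 0.9 with the mean of the 5, and 105, or 0.738%, of at least 0.8. In the opposite direction 11 genes reached -0.8 or lower. The most alike was ENSRNOG00000002336 (chromosome 14, 39154529 to 39231695), at 44.7 to 95.2 CPM, with r of 0.96 and rho of 0.96. Next was ENSRNOG00000056697 (chromosome 2, 155718359 to 156009526), at 22.0 to 44.6 CPM, with r of 0.94 and rho of 0.92. The most opposite were ENSRNOG00000001769 (chromosome 11, 71348717 to 71387992) and ENSRNOG00000017791 (chromosome 17, 54280851 to 54394634), each with r of -0.87. Over the HTSeq libraries alone these 4 genes had r of 0.95, 0.95, -0.88 and -0.80. They were chosen by this likeness, so no p is given, and the libraries share their normalisation.

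Ratios within a library do not depend on library size. Per length, Drd1 had 0.298 ± 0.051 of the counts of Drd2 (SD, n = 16), from 0.203 in FC3 to 0.383 in MC2. By group this ratio was 0.296 ± 0.036 in stressed and 0.271 ± 0.075 in control females, and in males 0.291 ± 0.012 under stress and 0.336 ± 0.055 without it. The group means thus lay within the spread of the control groups. Adora2a over Drd2, 2 receptors of the same neurons, was 0.229 ± 0.011 in stressed and 0.222 ± 0.0081 in control females. The male values were 0.273 ± 0.061 under stress and 0.251 ± 0.038 without it. It varied 1.11-fold and 1.09-fold within the female groups, but 1.61-fold and 1.43-fold within the male groups. Tac1 over Penk, the peptide precursors of the 2 pathways, ranged from 0.250 in FC3 to 0.575 in FS3, 2.29-fold in all, against 1.89-fold for Drd1 over Drd2 and 1.61-fold for Adora2a over Drd2.

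Technical measures were set beside these levels. FC4, the lowest library for Drd1, Drd2, Adora2a and Penk, had the smallest mitochondrial share, 64.2%, and the most nuclear counts, 22.6 M, and was counted with featureCounts. Against the mitochondrial share, with levels scaled to nuclear counts, 0 of the 5 genes correlated after adjustment over the 5. The share of all genes tested that correlate with it is not given here. The largest r was 0.57 for Adora2a (permutation p = 0.0255, adjusted p = 0.127; rho 0.34, permutation p = 0.201), which was 0.06 without the 2 libraries farthest from the median share. For Drd2 r was 0.49 (permutation p = 0.0566, adjusted p = 0.141), for Drd1 0.31, for Penk 0.25 and for Tac1 0.01. In the HTSeq libraries r ran from -0.11 for Tac1 to 0.34 for Drd2. Among the HTSeq libraries, entries that named no gene were 62.5% in FC2, a high library for these genes, against 45.1% in MC1 and 48.8% in MC2, which were also high. FS4 had 62.0% and MS4 64.7% of such entries, with mean deviations of the 5 genes of -0.03 and -0.01 on the log2 scale. The part of such entries in the spread of the 5 genes was not tested.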

How the data were processed

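The authors deposited raw counts per Ensembl gene. Per the submitters' processing notes, STAR 2.5.2a and HTSeq were used with the build Rnor_6.0. Per the file headers, 3 libraries were counted with featureCounts 1.6.1 on Ensembl release 92, with no paired-end or strand option. Whether HTSeq used strand is not given in the sources used here. HTSeq lines that name no gene, 44.8% to 64.7% of entries, stayed out of library sizes and tests.

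Counts were filtered with filterByExpr and scaled by TMM in edgeR 4.0.16 (R 4.3.3). A robust quasi-likelihood fit of 4 group means used all 16 libraries, and adjusted p-values under 0.05 were called. The fit was tested on simulated data. Correlations used log2 CPM with a prior count of 2. Alternatives were DESeq2 1.42.0, limma voom (limma 3.58.1), RLE factors, no filter, nuclear counts, the counting tool as a covariate or left out, each sex or condition alone, and each library left out.

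The name table at hand (47357 genes) matched 0 identifiers, so lists of further striatal, cholinergic, GABA, glutamate and glial genes could not be applied. The 5 genes were paired with identifiers by the series' rule. All 5 are named in each comparison, and of the genes most alike and most opposite, 2 each. Members and lists were chosen with earlier results of these data known.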

Additional observations from a re-analysis of the deposited data

Results flagged for a closer look

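The 5 genes and the mitochondrial share were screened in each group of 4 for a library far from the other 3. This applied to 0 of 24 groups, and by chance about 1 in 20 would be marked. The groups share libraries, so they are not independent. FC4 was not marked, though it had 7.39 CPM of Adora2a against 13.1 to 14.3 CPM in the other control females. For Drd2 it had 35.7 CPM against 63.8 to 71.4 CPM. A count of 0 here therefore does not mean that no library stood apart. Stressed and control libraries overlapped for all 5 genes in each sex. It follows that 0 of the 5 had stressed libraries wholly on opposite sides of the controls in the 2 sexes.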

How the results depend on the processing

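Of the 5 genes 0 were called in any of the 6 comparisons under any of the alternatives run (710 fold changes). The lowest adjusted p was 0.214, for Penk on average over the sexes by edgeR with no filter on low counts. Of the 710 fold changes 642 kept their sign, which is not a measure of stability. Leaving out a library from a group outside a comparison left its fold changes almost as they were. Other values, such as Drd2 in males at 0.00, lay too near 0 for a sign to mean much. With each library left out in turn, 8 to 9 of the 10 pairs correlated, and 0 of the 5 genes correlated with the mitochondrial share. The pair lost without MC1 or MC2 was Drd2 and Tac1 (r 0.52 and 0.49). The leave-one-out fits of correlations and of BCV were chosen after seeing the data. Without the featureCounts libraries the highest level in control females was 1.12 times the lowest for Drd2 and 1.09 times for Adora2a, against 2.00 and 1.93 times with FC4. Counts over all genes depended more on the setting. For stress in females, in males and on average edgeR called 9, 17 and 48 genes, DESeq2 27, 31 and 103, edgeR without a filter 105, 88 and 207, and edgeR on HTSeq libraries 14, 5 and 29. With 1 library left out the male count fell to as low as 7 and the average to 28. No paired analysis was possible, because the replicate numbers used here only follow the accession order. The numbers in the titles are not shared between groups.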
